A study of Mus musculus with 16 samples.

Results

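The genes described are 9 that encode proteins of endothelial cell-cell junctions, namely Cdh5, Cldn5, Pecam1, Tjp1, Ocln, Esam, F11r, Jam2 and Jam3. They were found by symbol among 38926 rows in each of the tables for sorted bone regions and for Lats2, and by Ensembl identifier among the 21603 rows of the Yap1/Taz files. All 9 were present everywhere, and 8 reached a mean of 1 FPKM (fragments per kilobase of a gene, corrected for the size of the library) and were tested in every comparison. Ocln was the exception.

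RNA-seq was performed on endothelial cells (ECs) sorted from the long bones of 3-week-old C57BL/6 mice, in 16 libraries and 3 comparisons. Regional differences were addressed with 3 libraries from the metaphysis (mpECs) and 3 from the marrow cavity of the diaphysis (bmECs). These wild-type cells were sorted by the Cdh5-mT/nG reporter, which is itself driven from Cdh5 regulatory sequences. The function of the Hippo pathway was addressed with 2 mutants. At postnatal day 21, 3 control libraries came from mice with loxP-flanked Yap1 and Wwtr1 (the gene for Taz) that lacked Cdh5CreERT2, and 3 libraries labelled ECKO came from mice with the same alleles and this tamoxifen-inducible recombinase. In the same way, 2 control libraries carried Lats2flx/flx without Cdh5CreERT2 and 2 libraries labelled Lats2 cKO carried it. Both the reporter and the recombinase depend on Cdh5, and the sorting methods name an antibody to CD31, the product of Pecam1, so the sort itself touches these members. The study describes biological triplicates, but the labels do not tie single libraries to animals, and p-values measure the spread between these libraries.

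Endothelial cells are joined by adherens junctions and tight junctions. In adherens junctions, VE-cadherin binds its counterpart on the neighbouring cell and is linked to the actin cytoskeleton through catenins. In tight junctions, claudins and occludin seal the gap between cells and are anchored by scaffold proteins of the ZO family, while junctional adhesion molecules and other proteins of the immunoglobulin superfamily contribute to adhesion, polarity and leukocyte passage. Sinusoidal vessels of the bone marrow are known for being more permeable than most capillaries.

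Depth, as whole reads recovered from the steps of the FPKM values, was 11128823 to 14763109 reads on genes in the regional libraries, 4886441 to 7164618 in the Yap1/Taz libraries and 4734426 to 7073051 in the Lats2 libraries. All 10 endothelial markers were above 1 FPKM in each table. Markers of blood cells were present too, and the summed FPKM of 7 erythroid genes was 28251 to 60395 in the regional libraries, 4447 to 6672 in the Yap1/Taz libraries and 243 to 3669.6 in the Lats2 libraries. The targeted genes did not follow the labels in the Yap1/Taz libraries. Wwtr1 was at 10.1 ± 0.24 FPKM (SD, n = 3) in control and 18.1 ± 2.48 FPKM (n = 3) in the libraries labelled ECKO, a log2 fold change of 0.78 (limma adjusted p = 0.0272), and Yap1 was at 1.23 ± 0.339 and 1.15 ± 0.245 FPKM (adjusted p = 0.934). These values cover whole transcripts, and the deleted exons were not read separately. The Wwtr1 call was made under 9 of 14 alternative fits, with log2 fold changes of 0.46 to 0.89. Every direction given below for the libraries labelled ECKO rests on the labels and would turn if the labels were exchanged. Lats2 was at 23.7 ± 0.471 FPKM (n = 2) in control and 19.2 ± 0.0108 FPKM (n = 2) in Lats2 cKO, a log2 fold change of -0.29 (limma adjusted p = 0.125), and another gene on its strand overlaps 42.4% of its exons. In bulk libraries of this kind, fewer cells of a type and less RNA per cell cannot be told apart.

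The members covered a wide range of levels. In mpECs the order by mean FPKM was Cldn5 (498 ± 25.2, SD, n = 3), Esam (225 ± 36.7), F11r (209.5 ± 23.7), Cdh5 (180.0 ± 28.1), Pecam1 (166 ± 13.4), Tjp1 (22.5 ± 3.54), Jam2 (18.4 ± 2.01), Jam3 (8.38 ± 2.28) and Ocln (0). The ranges of neighbours overlapped from Esam through F11r and Cdh5 to Pecam1, and between Tjp1 and Jam2, so these places are not resolved by 3 libraries. Cldn5 stood apart from all other members and ranked 92nd among all genes in mpECs and 71st in bmECs. In bmECs the order was the same, with Esam and F11r overlapping, and likewise Jam2 and Jam3.

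Among the control libraries of the genetic models, the order differed mainly for Yap1/Taz. In the Yap1/Taz control libraries Cdh5 led with 105 ± 4.74 FPKM, followed by Cldn5 with 84.4 ± 11.3, Pecam1 with 59.8 ± 2.97 and Esam with 54.0 ± 1.60, and no pair of neighbours overlapped. F11r was low in this table, with 20.2 ± 2.46 FPKM, and both Jam3 (2.95 ± 0.074) and Jam2 (2.19 ± 0.0926) were near the limit for testing. In the Lats2 control libraries Cldn5 (630.1 ± 67.0, n = 2) and Esam (478 ± 41.0) led, ahead of Cdh5 (248 ± 26.9), F11r (223 ± 7.61) and Pecam1 (198 ± 13.5). This order differed from that of mpECs only in the places of Cdh5 and F11r, which were not resolved in mpECs. The 3 tables were normalised separately, and levels were not tested across them.

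**Figure D1:**
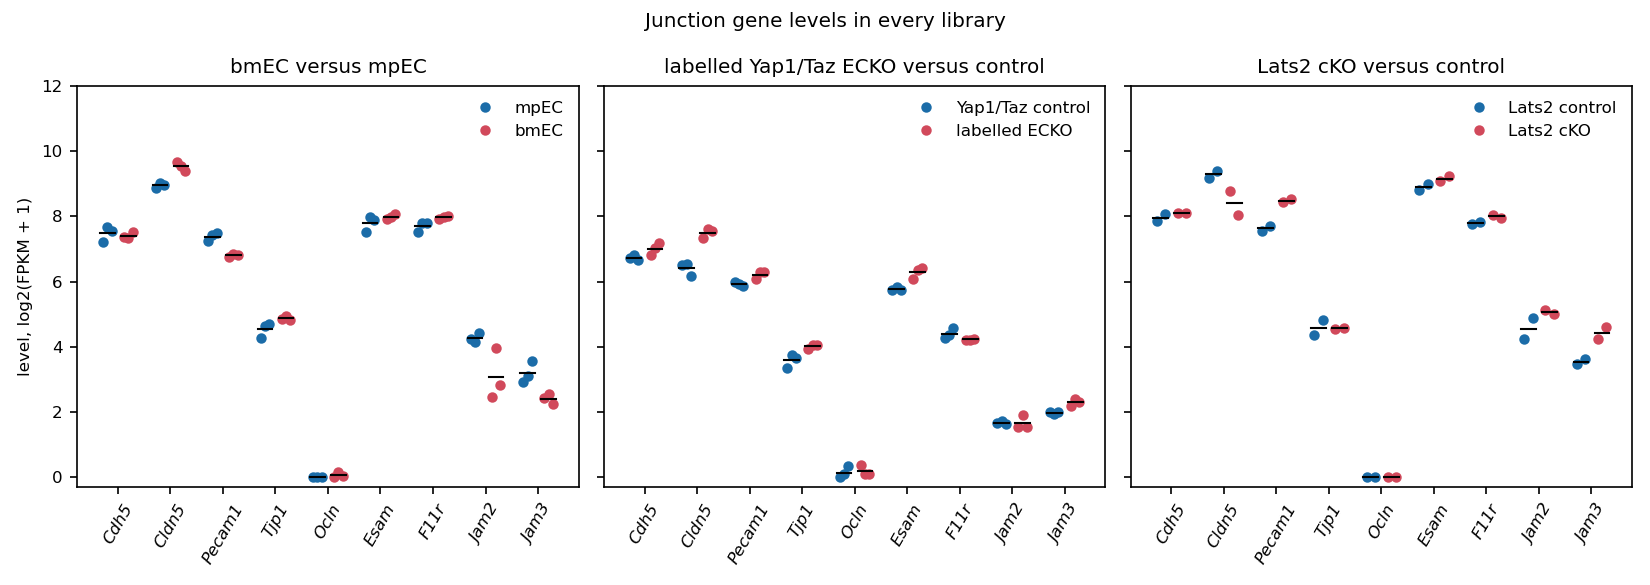
Level of the 9 junction genes as log2(FPKM + 1) (vertical axis) in each library (points) of the 3 comparisons, with the mean of each group as a black bar. Cldn5 was higher in bmECs and in the libraries labelled ECKO than in the libraries they were compared with, Ocln lay near 0 throughout, and Jam2 in bmECs was split into a higher library and a pair of lower libraries.

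VE-cadherin itself differed little. Cdh5 (ENSMUSG00000031871, GRCm38 chromosome 8 from 104101625 to 104144511, plus strand) encodes VE-cadherin, the defining cadherin of endothelial adherens junctions. It was at 149, 203 and 189 FPKM in mpECs and at 165, 160.1 and 182 FPKM in bmECs, and these ranges overlapped. The log2 fold change of bmECs relative to mpECs on the log2(FPKM + 1) scale was -0.079 (SE 0.12, limma adjusted p = 0.688). In the Yap1/Taz experiment, Cdh5 was at 105, 111 and 101 FPKM in control and at 113, 130.5 and 143 FPKM in the libraries labelled ECKO. The groups did not overlap, but the difference of 0.28 (SE 0.11) did not pass the test (limma adjusted p = 0.217). In the Lats2 experiment, control libraries had 229 and 267 FPKM and cKO libraries 276 and 277 FPKM, which gave a fitted log2 difference of 0.16 (SE 0.13, limma adjusted p = 0.431). The sign of this last difference turned when values were rescaled to a common sum or quantile normalised.

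Among the tight junction members Cldn5, Tjp1 and Ocln, Cldn5 showed the clearest differences. Cldn5 (ENSMUSG00000041378, chromosome 16 from 18776847 to 18778262, plus strand) encodes claudin-5, the main claudin of endothelial tight junctions. It was at 470.2, 519.8 and 503 FPKM in mpECs and at 822, 743 and 668 FPKM in bmECs, so every bmEC library lay above every mpEC library. Its log2 fold change was 0.57 (SE 0.10, limma adjusted p = 0.00517), a 1.50-fold higher mean in bmECs. It did not pass with the endothelial markers as the reference (0.53, adjusted p = 0.0642).

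Cldn5 also separated the Yap1/Taz groups. Control libraries had 89.5, 92.3 and 71.4 FPKM and the libraries labelled ECKO had 161, 194 and 185 FPKM. The mean was 2.13-fold higher, with a log2 fold change of 1.09 (SE 0.12, limma adjusted p = 0.0117), and no library of one group reached the other. The call was lost without ECKO replicate 2 (adjusted p = 0.0711), without ECKO replicate 3 (0.0983) and without a filter on low values (0.0679), while the log2 fold change was between 0.76 and 1.17 in all 14 alternatives. Relative to the endothelial reference, which shifted the median of all genes by -0.33, Cldn5 remained higher by 0.76 (adjusted p = 0.00814).

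In Lats2 cKO libraries, Cldn5 had the opposite sign. It was at 583 and 678 FPKM in control and at 438 and 262 FPKM in Lats2 cKO, which differed from each other by more than the controls did. The log2 fold change of -0.89 (SE 0.27) did not pass the test (limma adjusted p = 0.0699). It passed under 3 of 12 alternatives, namely limma-voom on the recovered reads (-1.03, adjusted p = 0.0232), values rescaled to a common sum (-1.16, adjusted p = 0.0443) and the fit without cKO replicate 1 (-1.26, adjusted p = 0.0239), where the lone cKO library was assumed to vary like the controls. Without cKO replicate 2 the log2 fold change was -0.52, and with the endothelial reference it was -0.59 (limma adjusted p = 0.142). Limma-voom, the common sum and the endothelial reference shifted the median of all genes by -0.14, -0.26 and 0.29.

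Tjp1 (ENSMUSG00000030516, chromosome 7 from 65296165 to 65527781, minus strand) encodes ZO-1, the scaffold that links claudins and junctional adhesion molecules to actin. It was at 18.5, 23.8 and 25.2 FPKM in mpECs and at 27.9, 29.8 and 27.4 FPKM in bmECs. These groups did not overlap, but the log2 fold change of 0.33 (SE 0.12) did not pass the adjusted threshold (limma adjusted p = 0.0847). In the Yap1/Taz experiment, Tjp1 was at 9.16, 12.5 and 11.8 FPKM in control and at 14.3, 15.7 and 15.8 FPKM in the libraries labelled ECKO, again without overlap and without passing (log2 fold change 0.43, SE 0.13, limma adjusted p = 0.115). Its Lats2 groups overlapped, with 19.4 and 27.5 FPKM in control and 22.5 and 22.9 FPKM in Lats2 cKO.

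Ocln (ENSMUSG00000021638, chromosome 13 from 100496507 to 100552718, minus strand), which encodes occludin, the 4-pass membrane protein of tight junctions, was hardly detected. No read was recovered in any mpEC or Lats2 library, which allows up to 0.0732 FPKM in mpECs and up to 0.188 FPKM in the Lats2 libraries when 3 reads are taken as the limit of a count of 0. In bmECs 0, 5 and 1 reads were recovered, and in the Yap1/Taz libraries 0, 2 and 7 reads in control and 6, 2 and 2 in those labelled ECKO. At this depth no difference in Ocln was detectable, and these limits cover counting error only.

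**Figure D2:**
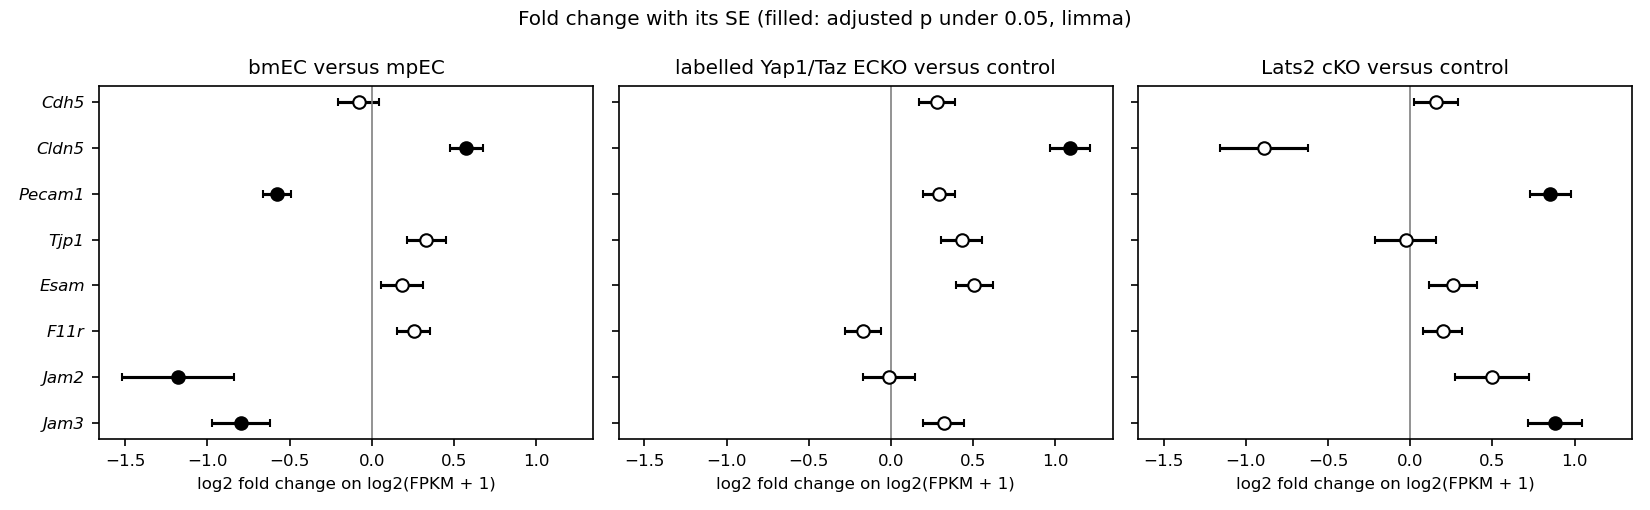
Log2 fold change on the log2(FPKM + 1) scale (horizontal axis, second group minus first, with its SE as bars) of the 8 tested junction genes in the 3 comparisons, with filled points for an adjusted p under 0.05 by limma. Pecam1, Jam2 and Jam3 lay below 0 in bmECs, and Pecam1 and Jam3 lay above 0 in Lats2 cKO, while Cldn5 was at 0.57, 1.09 and -0.89.

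Members of the immunoglobulin superfamily differed in which comparisons passed the test. F11r and Esam, together with Cdh5, did not pass in any comparison. They did not share a pattern, since in the libraries labelled ECKO Esam had a log2 fold change of 0.51 and F11r of -0.17. Pecam1, Jam2 and Jam3 were called lower in bmECs than in mpECs. Pecam1 and Jam3, but not Jam2, were called higher in Lats2 cKO than in control. Pecam1 (ENSMUSG00000020717, chromosome 11 from 106654217 to 106750628, minus strand) encodes CD31, a homophilic adhesion molecule of endothelial cells that platelets and leukocytes also carry. It was at 152, 169.9 and 178 FPKM in mpECs and at 107, 114 and 111 FPKM in bmECs. It was lower in every bmEC library, with a log2 fold change of -0.58 (SE 0.085, limma adjusted p = 0.00229). The Pecam1 call held under all 14 alternatives. In the Yap1/Taz experiment, Pecam1 had 63.0, 59.4 and 57.1 FPKM in control and 66.9, 76.9 and 77.0 FPKM in the libraries labelled ECKO, which did not pass the test (log2 fold change 0.29, SE 0.097, limma adjusted p = 0.155).

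In the Lats2 experiment, Pecam1 was at 188 and 207 FPKM in control and at 346 and 369 FPKM in Lats2 cKO. The cKO libraries lay well above the controls, by a log2 fold change of 0.85 (SE 0.13, limma adjusted p = 0.0150) and a 1.81-fold higher mean. Without either of the control libraries no gene of the whole table passed the test, and Pecam1 had an adjusted p of 0.177 and 0.147 with log2 fold changes of 0.78 and 0.92.

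Jam2 (ENSMUSG00000053062, chromosome 16 from 84774123 to 84825928, plus strand) encodes JAM-B, which binds JAM-C on neighbouring cells. It was at 17.7, 16.8 and 20.6 FPKM in mpECs and at 4.49, 14.8 and 6.16 FPKM in bmECs. The groups did not overlap, but bmEC replicate 2 was close to the mpEC libraries. The log2 fold change was -1.18 (SE 0.34, limma adjusted p = 0.0403), and it was -1.62 (adjusted p = 0.000866) without bmEC replicate 2. Without any single one of the other 5 libraries the call was lost, with adjusted p between 0.0767 and 0.12, and it was lost without a filter on low values (0.106). Among the Yap1/Taz libraries Jam2 had 2.19, 2.28 and 2.09 FPKM in control and 1.90, 2.77 and 1.89 FPKM in the libraries labelled ECKO, which rested on 53 to 98 reads per library. For Lats2, Jam2 was at 18.0 and 28.3 FPKM in control and at 33.8 and 30.9 FPKM in Lats2 cKO, which gave a fitted log2 difference of 0.50 (SE 0.22) that did not pass (limma adjusted p = 0.170).

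Jam3 (ENSMUSG00000031990, chromosome 9 from 27097384 to 27155421, minus strand) encodes JAM-C. It was at 6.60, 7.58 and 10.9 FPKM in mpECs and at 4.36, 4.83 and 3.75 FPKM in bmECs, without overlap. Its log2 fold change was -0.80 (SE 0.18, limma adjusted p = 0.0141). In the Lats2 experiment Jam3 was at 10.1 and 11.3 FPKM in control and at 18.1 and 23.2 FPKM in Lats2 cKO, which gave a fitted log2 difference of 0.88 (SE 0.17, limma adjusted p = 0.0237). The latter call was made under 8 of 12 alternatives. It was lost without a filter on low values. It was also lost without control replicate 1, control replicate 2 or cKO replicate 2, in fits that left 1 library in a group. Among the Yap1/Taz libraries Jam3 had 2.99, 2.86 and 2.99 FPKM in control and 3.54, 4.31 and 3.95 FPKM in the libraries labelled ECKO (log2 fold change 0.32, SE 0.13, limma adjusted p = 0.223). Of the exon bases of Jam3, 36.2% lie under Gm48796 on the opposite strand, and whether counting used strand is not given in the sources used here, so that reads of the antisense gene could be included.

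F11r (ENSMUSG00000038235, chromosome 1 from 171437535 to 171464603, plus strand) encodes JAM-A, which epithelia and platelets also carry. It was at 182, 223 and 223 FPKM in mpECs and at 239.7, 252 and 257 FPKM in bmECs, with a log2 fold change of 0.26 (SE 0.10, limma adjusted p = 0.105). It was at 17.6, 17.5 and 18.0 FPKM in the libraries labelled ECKO, just under the 18.2, 19.4 and 22.9 FPKM of the controls (log2 fold change -0.17, SE 0.11, limma adjusted p = 0.440). It passed there only with the endothelial reference (-0.50, adjusted p = 0.0137). That reference shifted the median of all genes by -0.33, and 4001 of 11320 genes were called lower with it. For Lats2, F11r was at 217 and 228 FPKM in control and at 263 and 248 FPKM in Lats2 cKO (log2 fold change 0.20, SE 0.12, limma adjusted p = 0.283).

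Esam (ENSMUSG00000001946, chromosome 9 from 37528078 to 37538319, plus strand) encodes an endothelial adhesion molecule that platelets carry too. It was at 183, 252 and 238 FPKM in mpECs and at 243, 249 and 267 FPKM in bmECs, which overlapped. The Yap1/Taz controls had 53.1, 55.8 and 53.1 FPKM and the libraries labelled ECKO had 66.2, 81.1 and 85.5 FPKM, without overlap. The log2 fold change of 0.51 (SE 0.11) just missed the threshold (limma adjusted p = 0.0626), and it passed under 4 of 14 alternatives, among them limma-voom on the recovered reads (0.47, adjusted p = 0.0309). With the endothelial reference it was 0.18 (adjusted p = 0.207). For Lats2, Esam was at 449 and 507 FPKM in control and at 541 and 602 FPKM in Lats2 cKO (log2 fold change 0.26, SE 0.14, limma adjusted p = 0.246).

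Counted over the members, Cldn5 was called higher in bmECs, 1 of 8 tested members against 13.0% of all 11422 tested genes, and Pecam1, Jam2 and Jam3 were called lower, 3 of 8 against 10.5% of all genes. In the libraries labelled ECKO, 1 of 8 was called higher, against 0.883% of 11320 genes, and 0 of 8 lower, against 0.424%. Beside this 0, of the members 6 of 8 had an unadjusted p under 0.05 in either direction (Cdh5, Cldn5, Pecam1, Tjp1, Esam and Jam3), against 17.9% of all genes, and limma-voom called no member lower. In Lats2 cKO, 2 of 8 were called higher, against 11.8% of 12453 genes, and 0 lower, against 9.98%, where 3 of 8 (Cldn5, Pecam1 and Jam3) had an unadjusted p under 0.05, against 38.6% of all genes, and limma-voom called Cldn5 lower. The median log2 fold change of the 8 tested members was 0.052 in bmECs, 0.31 in the libraries labelled ECKO and 0.23 in Lats2 cKO, beside a median of -0.00068, -0.0047 and -0.0033 over all tested genes. By the stricter rule of the study's methods (an absolute log2 fold change above 0.5 with an adjusted p below 0.01), 2 of 8 members were called in bmECs (Cldn5 and Pecam1), against 11.7% of all genes, 0 in the libraries labelled ECKO, against 0.00883%, and 0 in Lats2 cKO, against 2.06%. With 8 genes chosen by name, these shares describe the members only.

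Groups that did not overlap were more frequent than calls. Of 8 tested members, 6 (Cdh5, Cldn5, Pecam1, Tjp1, Esam and Jam3) lay above every control in the libraries labelled ECKO, against 12.3% of all genes, and F11r lay below, against 11.3%. The 10 endothelial markers moved with them. All 10 had a positive log2 fold change with a median of 0.38, none passed the test, and their summed level was 485 to 528 FPKM in control and 595 to 663 FPKM in the libraries labelled ECKO. With these markers as the reference, the log2 fold changes of Cdh5, Pecam1 and Jam3 turned to -0.047, -0.033 and -0.0056. In Lats2 cKO, 6 of 8 members lay above both controls, against 34.0% of all genes, and Cldn5 lay below both, against 34.2%. In bmECs, 3 of 8 lay above and 3 of 8 below all mpEC libraries, against 22.1% and 19.2% of all genes.

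**Figure D3:**
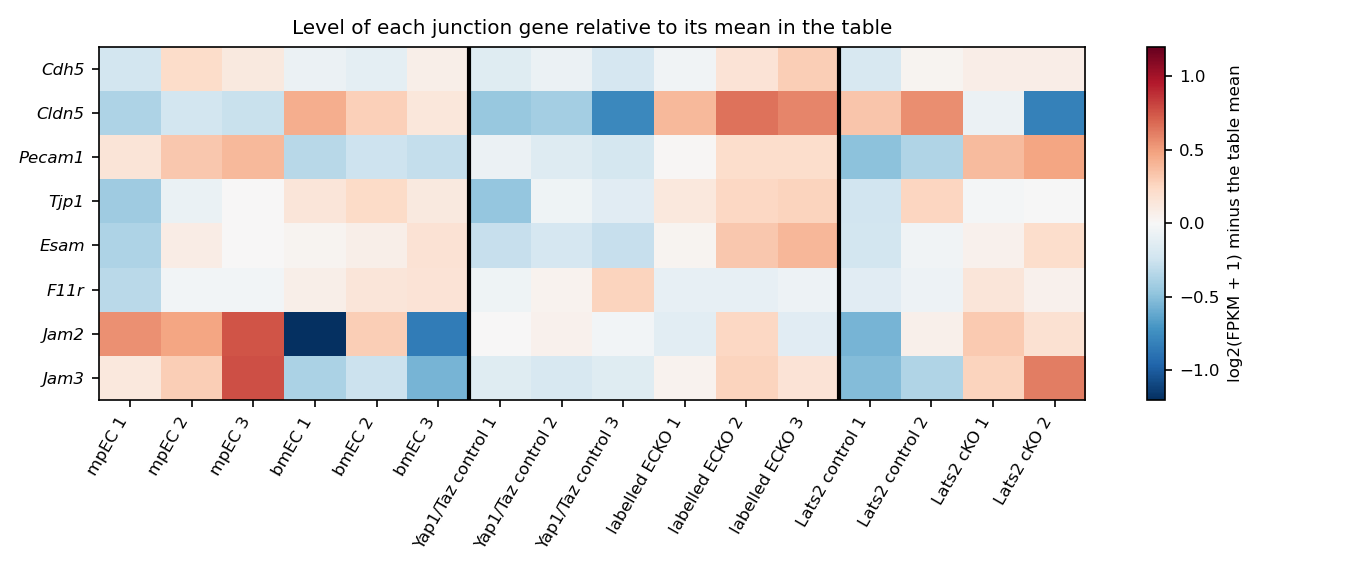
Level of the 8 tested junction genes (rows) in each of the 16 libraries (columns) as log2(FPKM + 1) minus the gene's mean in its table (colour scale), with black lines between the 3 tables. Cldn5 was high in the bmEC libraries, the libraries labelled ECKO and the Lats2 controls, while Pecam1 and Jam3 were high in mpECs and Lats2 cKO, and bmEC replicate 2 stood apart from the other bmEC libraries for Jam2.

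The abundant members were also set against Cdh5 within each library, a ratio that does not depend on library scaling. The ratio of Cldn5 to Cdh5 was 3.17, 2.56 and 2.67 in mpECs and 4.98, 4.64 and 3.66 in bmECs. It was 0.855, 0.834 and 0.705 in Yap1/Taz control libraries and 1.43, 1.49 and 1.29 in those labelled ECKO. The Lats2 libraries had 2.54 in both controls and 1.59 and 0.946 in cKO. None of these pairs of groups overlapped, and the ratio changed by 1.58-fold, 1.76-fold and 0.499-fold. The exact two-sided permutation test gave p = 0.1 for each of the first 2 comparisons and p = 0.333 for the third, the smallest that 3 against 3 and 2 against 2 libraries allow, so that p under 0.05 could not be reached. Over the 12 ratios tested the Benjamini-Hochberg adjusted values were 0.171 and 0.4 by the same exact test.

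The ratio of Pecam1 to Cdh5 was 1.02, 0.838 and 0.942 in mpECs and 0.651, 0.714 and 0.61 in bmECs, without overlap. In the Yap1/Taz experiment it was 0.568 ± 0.0324 (SD, n = 3) in control and 0.574 ± 0.0308 (n = 3) in the libraries labelled ECKO, which overlapped (exact permutation p = 0.9). Among the Lats2 libraries it was 0.821 and 0.776 in control and 1.26 and 1.33 in Lats2 cKO. Esam relative to Cdh5 was 1.20-fold higher in bmECs and 1.18-fold higher in the libraries labelled ECKO, without overlap in either (exact permutation p = 0.1 each, adjusted 0.171). F11r relative to Cdh5 was 1.26-fold higher in bmECs and 0.724-fold in the libraries labelled ECKO, both without overlap (exact permutation p = 0.1 each, adjusted 0.171).

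**Figure D4:**
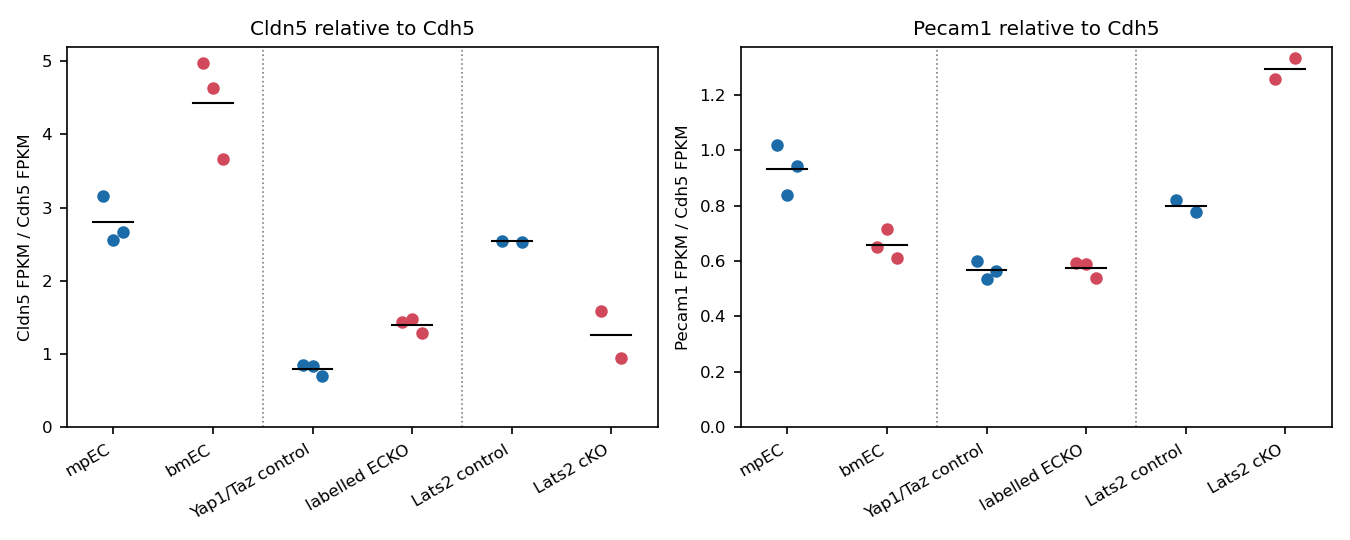
FPKM of Cldn5 (left) and Pecam1 (right) divided by FPKM of Cdh5 (vertical axes, from 0) in each library (points) of the 6 groups, with the group mean as a black bar and dotted lines between tables that were normalised separately. Cldn5 per Cdh5 was higher in bmECs and in the libraries labelled ECKO and lower in Lats2 cKO, and Pecam1 per Cdh5 was lower in bmECs, level between the Yap1/Taz groups and higher in Lats2 cKO.

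Other cell types moved with the comparisons. In mpECs, the summed level of 6 osteoblast markers was 122 to 546 FPKM, against 40.9 to 52.3 FPKM in bmECs, and that of 4 chondrocyte markers was 12.3 to 15.6 FPKM against 0 to 0.0702 FPKM. The sum of 5 macrophage and monocyte markers was higher in mpECs (1039 to 1904 against 704 to 969 FPKM), and of these Lyz2 was called lower in bmECs (1380.2 and 764 FPKM) while 2 of 5 had a positive log2 fold change, whereas platelet markers overlapped (77.9 to 334 against 79.9 to 482 FPKM), as did the neutrophil, erythroid, B cell and stromal lists. In the libraries labelled ECKO, 6 osteoblast markers summed to 4.49 to 12.7 FPKM against 23.2 to 30.6 FPKM in control, chondrocyte markers to 0.404 to 0.905 against 1.61 to 4.93 FPKM and B cell markers to 159 to 166 against 199 to 229 FPKM. In Lats2 cKO, the sums of 4 blood cell lists were lower than in control and every tested marker in them had a negative log2 fold change, with 9.79 to 12.4 against 30.02 to 117 FPKM for 8 platelet markers, 243 to 1395 against 2436 to 3669.6 FPKM for erythroid markers, 703 to 843 against 1918 to 2873.5 FPKM for neutrophil markers and 39.5 to 61.7 against 224 to 268 FPKM for B cell markers. The macrophage and monocyte sum was lower too (67.9 to 285 against 409 to 506 FPKM), but it was mostly Lyz2 (149 and 443 FPKM, not called), 0 of 5 markers were called by limma, and 3 of 5 had a positive log2 fold change with a median of 0.35. Stromal and pericyte markers were higher in Lats2 cKO (62.7 to 72.3 against 31.4 to 39.9 FPKM) and the endothelial sum was lower (2340.0 to 2446 against 2798 to 2948 FPKM), with 1 of 10 endothelial markers called higher, 3 lower and a median log2 fold change of -0.049. The most abundant markers of these lists were Mmrn2, Egfl7 and Sox18 (endothelial), Pf4 (platelet), Hbb-bs (erythroid), S100a8 and S100a9 (neutrophil), Ighm and Cd79b (B cell), Lyz2 (macrophage), Bglap and Col1a1 (osteoblast), Col2a1 (chondrocyte), and Cxcl12 and Pdgfrb (stromal). Their part in the differences of Pecam1, Esam, F11r and the other members was not tested.

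In a list of 14 genes of the adherens junction and their relatives, some were called although Cdh5 was not. Of these 14, 11 were tested in bmECs against mpECs, with 2 called higher and 2 lower (median log2 fold change 0.15). Over all tested genes, 13.0% were called higher and 10.5% lower in bmECs. The shares were 0.883% and 0.424% in the libraries labelled ECKO, and 11.8% and 9.98% in Lats2 cKO. Counts for this and the next lists describe the listed genes only. Ctnnal1, an α-catenin relative, was at 33.0 ± 2.62 and 60.3 ± 0.747 FPKM (log2 fold change 0.85, limma adjusted p = 0.000316), and Pvrl2, which encodes nectin-2, was at 37.9 ± 8.66 and 69.2 ± 17.0 FPKM (0.85, adjusted p = 0.0231, a call under 8 of 13 alternatives). Cdh13, which encodes the membrane-anchored T-cadherin, was lower in bmECs, with 24.9 ± 2.26 against 5.51 ± 3.70 FPKM (-2.13, adjusted p = 0.00266), as was Ctnnb1, which encodes β-catenin, with 82.2 ± 9.35 against 52.9 ± 4.30 FPKM (-0.62, adjusted p = 0.00473). Ctnna1, the most abundant of the list, did not pass (0.24, adjusted p = 0.0645). None of the 12 genes tested in the libraries labelled ECKO passed (limma, with the lowest adjusted p among the named genes at 0.187 for Ctnnb1), although 11 of 12 had a positive log2 fold change with a median of 0.26. In Lats2 cKO (median 0.076), 1 of 12 was called higher, against 11.8% of all genes, and 2 lower, against 9.98%. Cdh13 rose from 10.7 ± 3.56 to 77.1 ± 21.2 FPKM (2.75, adjusted p = 0.00912), and Ctnnal1 fell from 28.9 ± 5.18 to 9.04 ± 0.22 FPKM (-1.56, adjusted p = 0.00912), so both had the opposite sign to the regional comparison. Jup, which encodes plakoglobin, fell from 186 ± 15.5 to 128 ± 2.92 FPKM (-0.54, adjusted p = 0.0362, a call under 5 of 12 alternatives and under none of the fits without a single library), while Ctnnb1 did not pass (-0.052, adjusted p = 0.841) and neither did Ctnna1 (0.23, adjusted p = 0.208).

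Of 24 further tight junction components, 16 were tested in bmECs against mpECs, with 3 called higher and 1 lower (median 0.12). Over all genes, 13.0% were called higher and 10.5% lower. Cldn15 (0.70, adjusted p = 0.0475 by limma) and Cldn25 (0.40, adjusted p = 0.0196), both named as claudins, were higher in bmECs, as was Cldn5. These calls were made under 4 of 14 and 8 of 13 alternatives. The symbol Cldn25 was not matched to the gene annotation used here, so what it encodes rests on the symbol. The Cldn15 call was lost without any single library other than mpEC replicate 1, and that of Cldn25 without mpEC replicate 3, bmEC replicate 1 or bmEC replicate 2, with adjusted p of 0.0584 to 0.146 and 0.0578 to 0.0761. Cgnl1, which encodes paracingulin, was lower in bmECs, with 7.91 ± 0.751 against 3.97 ± 0.302 FPKM (-0.84, adjusted p = 0.00127). Cldn25, at 59.9 and 79.5 FPKM in mpECs and bmECs, and Cldn15, at 8.34 and 13.9 FPKM, were far below Cldn5. None of the 17 tested in the libraries labelled ECKO passed (limma, with Amotl1 at 0.37 and adjusted p = 0.081). In Lats2 cKO (median -0.18), 3 of 16 were called higher, against 11.8% of all genes, and 3 lower, against 9.98%. Among those called higher were Amotl2, an angiomotin relative (0.88, adjusted p = 0.0131), and Cgnl1 (0.73, adjusted p = 0.0421, a call under 7 of 12 alternatives). The polarity genes Pard6g (-1.71, adjusted p = 0.0158) and Prkci (-0.90, adjusted p = 0.0316, a call under 7 of 12 alternatives) were called lower, and Tjp1 was not called.

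Among 12 adhesion proteins of transmigration and homophilic contact, 9 were tested in bmECs, with 3 called higher and 2 lower (median -0.022). Over all genes, 13.0% were called higher and 10.5% lower. Cxadr, a tight junction protein of the same superfamily as the junctional adhesion molecules, was 7.22-fold higher in bmECs (6.69 ± 0.998 against 48.3 ± 12.3 FPKM, log2 fold change 2.65, limma adjusted p = 8.42e-05). Cd47, a ligand of SIRPα, was higher (0.52, adjusted p = 0.00602). Mcam, which encodes CD146, was at 52.9 ± 9.10 in mpECs and 18.4 ± 3.81 FPKM in bmECs (-1.48, adjusted p = 0.000825), and Icam2, an integrin ligand, was lower as well (-0.45, adjusted p = 0.00386). In Lats2 cKO, Mcam and Cxadr had opposite signs to these, with Mcam at 93.6 ± 9.77 and 213 ± 18.8 FPKM (1.18, adjusted p = 0.0106) and Cxadr at 10.8 ± 0.784 and 0.659 ± 0.256 FPKM (-2.84, adjusted p = 0.00654). These were the 2 genes called of 8 tested, against 11.8% of all genes called higher and 9.98% lower. In the libraries labelled ECKO, 1 of 8 tested genes passed, against 0.883% of all genes called higher. This gene was Mcam, with 35.3 ± 0.896 and 51.6 ± 4.08 FPKM (0.53, adjusted p = 0.0387). This call was made under 7 of 14 alternatives. It was lost with the endothelial reference (0.21, adjusted p = 0.147), without a filter on low values (0.0679), and without control replicate 2 (0.0933), control replicate 3 (0.0942), ECKO replicate 2 (0.203) or ECKO replicate 3 (0.16).

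Regulators of junction stability numbered 22. In bmECs 20 were tested (median -0.11), with 1 called higher, against 13.0% of all genes, and 3 lower, against 10.5%. Plvap, the diaphragm protein of fenestrated and sinusoidal endothelium, was at 414 ± 92.5 and 764 ± 256 FPKM (0.85, limma adjusted p = 0.0482). The Plvap call was made under 6 of 14 alternatives and was lost, among others, with quantile normalisation (0.185), with limma-voom (0.0954) and without any single library (0.115 to 0.126) other than mpEC replicate 2 and bmEC replicate 1. In the same comparison Heg1, the receptor of the CCM pathway (-0.63, adjusted p = 0.00372), and Afap1l1 (-0.61, adjusted p = 0.0355, a call under 9 of 14 alternatives) were lower. None of the 21 tested in the libraries labelled ECKO passed (limma), and 17 had a positive log2 fold change with a median of 0.13. In Lats2 cKO (median 0.072), 3 of 20 were called higher, against 11.8% of all genes, and 1 lower, against 9.98%. Rapgef1, an exchange factor of Rap1 (0.95, adjusted p = 0.0386, a call under 6 of 12 alternatives), the kinase Rock2 (0.63, adjusted p = 0.0324, under 7 of 12) and Heg1 (0.57, adjusted p = 0.04997, a call under 2 of 12 alternatives) were higher, and the Src-family kinase Yes1 was lower (-0.58, adjusted p = 0.0414, under 7 of 12). None of these 4 calls was made without either of the control libraries or without cKO replicate 2. Plvap was at 3060.5 ± 51.4 and 2565.5 ± 77.0 FPKM and did not pass (-0.25, adjusted p = 0.312). It passed with quantile normalisation (-1.23, adjusted p = 0.0155) and with values rescaled to a common sum (-0.53, adjusted p = 0.0431), 2 of 12 alternatives, and its sign turned with the endothelial reference (0.043).

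Likeness between members was described over the 16 libraries after each table's mean was removed. Since the libraries share their table and group, the correlations were not tested. Pecam1 and Jam3 followed each other most closely (Pearson r = 0.948), followed by Cdh5 and Esam (0.854) and by Tjp1 and Esam (0.79). Jam2 went with Jam3 (0.722) and Pecam1 (0.669). Cldn5 was negatively related to Pecam1 (-0.328), Jam2 (-0.366) and Jam3 (-0.35) and went with Tjp1 (0.658). F11r did not exceed 0.3 with any other member.

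Over 4947 or fewer genes with at least 5 FPKM in every table, the gene with the pattern most like Pecam1 was Pde4b, a phosphodiesterase (r = 0.989), followed by Lmna (0.976) and Nrarp (0.974), and Pde4b was likewise first for Jam3 (0.963), before Tubb2a (0.957) and Ppic (0.952). Pde4b was at 12.6, 15.5 and 20.4 FPKM in mpECs, at 3.91, 5.32 and 4.29 FPKM in bmECs, at 9.21 and 9.66 FPKM in Lats2 controls and at 35.6 and 50.7 FPKM in Lats2 cKO. The closest genes to Cldn5 were Npr1, a natriuretic peptide receptor (0.908), Hbp1 (0.899) and Clk1 (0.896). Jam2 was followed most closely by Lims2 (0.948), Cav1, which encodes caveolin-1 (0.912), and Ly6c1 (0.904). Cav1 was at 17.8, 93.8 and 23.4 FPKM and Lims2 at 9.65, 32.8 and 12.5 FPKM in bmECs, so that replicate 2 was the high library for these genes as it was for Jam2. For Cdh5 the closest genes were Marcksl1 (0.878), Sec31a (0.86) and Dctn2 (0.859), and for Esam Marcksl1 (0.943), Rela (0.92) and Arhgef7 (0.906). Tjp1 was closest to Stap2 (0.924), Ppp1r2 (0.855) and Tpst2 (0.853), and F11r to Ergic3 (0.86), Tsnax (0.823) and Lbh (0.814).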

How the data were processed

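Paired-end reads from TruSeq Stranded Total RNA libraries were, per the labels and the study's methods, mapped to GRCm38 with TopHat and counted with HTSeq 0.6.1. The authors deposited FPKM values. The step from counts to FPKM and the strand setting are not given in the sources used here. Genes whose mean over a comparison's libraries reached 1 FPKM were tested as log2(FPKM + 1) with limma 3.58.1 in R 4.3.3 (group term, trended empirical Bayes moderation, two-sided p-values, Benjamini-Hochberg adjustment over all genes tested, call at 0.05). The scale understates changes of low genes. Reads were recovered from the FPKM steps with GENCODE M21 exon lengths, and 62.4% to 70.0% of values of 20 reads or fewer lay within 0.02 of a whole read, where 4.0% would by chance. The recovered reads served for depth, for limma-voom, for the read numbers of Ocln and Jam2 and for the limits of Ocln. The fit was also run on simulated data with genes drawn independently, which leaves out shifts between libraries, and no result here rests on it. No 2 replicates were alike within counting noise (chi-square per gene 3.35 to 34.3).

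The members and lists were chosen with earlier results of these data known. The text names all members, the targeted genes, per list and direction up to 3 called genes of largest change whose mean reached 5 FPKM, the 2 most abundant genes of each list (of which those not called are given only for Ctnna1, Ctnnb1, Amotl1 and Plvap), the most abundant marker of each cell type, and the 3 genes most like each member. A called gene of the tight junction list is not reported here. Alternatives were a pseudocount of 0.1, no filter, a filter at 5 FPKM, quantile normalisation, rescaling to a common sum, a reference of 10 endothelial markers, the study's call rule, leaving out each library, a replicate block and limma-voom. For the endothelial reference, the median log2 level of the 10 markers was made equal in all libraries of a comparison. It therefore follows the markers of middle level and not the median of the markers' log2 fold changes.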

Additional observations from a re-analysis of the deposited data

How the results depend on the processing

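Over the 8 tested members and 3 comparisons, 275 of the alternative fits kept the direction and the side of the threshold, 16 lost a call, 11 gained one and 16 changed sign without a call in either fit. No called member changed sign. The number of members called in bmECs against mpECs was 3 to 4 without single libraries and 2 by the study's rule, beside 1335 genes by that rule and 1596 genes of the whole table with the endothelial reference. In the libraries labelled ECKO it was 0 without a filter and by the study's rule, 2 with a mean of at least 5 FPKM, with quantile normalisation, with the endothelial reference and with limma-voom, and 0 to 2 without single libraries, with 0 without ECKO replicate 2 or 3. The count over all genes there fell from 148 to 1 without a filter and by the study's rule, was 45 with the replicate block, 359 with limma-voom and 4073 with the endothelial reference, and ranged from 1 (without ECKO replicate 2 or 3) through 14 and 20 (without control replicate 3 or 2) to 293 (without ECKO replicate 1). In Lats2 cKO the number of members called was 1 without a filter, 5 with the endothelial reference, 0 by the study's rule and 0 to 3 without single libraries, and the count over all genes was 1389 without a filter, 257 by the study's rule and 0 to 2701 without single libraries, with 933 without cKO replicate 2. The 0 without control replicate 1 or 2 stood beside 2724 and 2879 genes with an unadjusted p under 0.05 by limma, in fits where the lone control was assumed to vary like the cKO libraries.

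Log2 fold changes that turned sign in bmECs were 0.012 for Cdh5 without mpEC replicate 2 (-0.21 to 0.012 without single libraries) and -0.0059 for Esam with limma-voom. In the libraries labelled ECKO they were -0.047 for Cdh5, -0.033 for Pecam1, -0.0056 for Jam3 and -0.049 for Ctnnb1 with the endothelial reference, 0.0072 with quantile normalisation and 0.0089 to 0.053 without single libraries for Jam2, and 0.0098 to 0.077 without single libraries for Yap1. In Lats2 cKO they were, with quantile normalisation, -0.15 for Cdh5, -0.10 for F11r and -0.046 for Ctnna1. With rescaling to a common sum they were -0.11 for Cdh5, -0.011 for Esam, -0.074 for F11r and -0.040 for Ctnna1. With the endothelial reference they were 0.27 for Tjp1, 0.0051 for Lats2, 0.25 for Ctnnb1 and 0.043 for Plvap, and without single libraries the values ran from -0.27 to 0.21 for Tjp1 and from -0.24 to 0.14 for Ctnnb1. The causes were not tested. Rescaling to a common sum shifted the median of all genes by -0.14 in bmECs and -0.26 in Lats2 cKO, and limma-voom by -0.19 and -0.14. The endothelial reference shifted it by 0.29 in Lats2 cKO, where the median log2 fold change of the markers themselves was -0.049. Of all calls, 55.2% were higher in bmECs (32.0% with the common sum, 27.1% with limma-voom), 67.6% in the libraries labelled ECKO (1.77% with the endothelial reference, 57.4% with limma-voom) and 54.1% in Lats2 cKO (31.2%, 38.5% and 82.7% with the common sum, limma-voom and the endothelial reference).

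Whether replicate numbers pair the libraries was not settled. In the regional comparison, deviations of same-numbered libraries correlated at 0.307, 0.0876 and 0.102, against -0.206 to 0.115 for libraries of different numbers. In the Yap1/Taz comparison the values were -0.175, -0.123 and -0.155, against -0.154 to 0.235. The Lats2 comparison gave 0.0651 against -0.0651. It cannot decide, since 2 libraries of a group deviate from their mean by equal amounts in opposite directions. With the replicate block, 3072 genes were called in bmECs, 45 in the libraries labelled ECKO and 2655 in Lats2 cKO, and the number of members called was 4, 1 and 2. The block lost the calls of Mcam in the libraries labelled ECKO (limma adjusted p = 0.0941) and of Jup (0.0516) and Heg1 (0.0678) in Lats2 cKO. With the median in place of the mean, 7 of 9 places in the order of levels in bmECs were kept, with Esam and F11r exchanged. Depth limits what can be said of Ocln, and of Jam2 and Jam3 in the Yap1/Taz libraries. DESeq2 and edgeR were not run, since the values are not counts.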
